A study of Mus musculus with 4 samples.

Results

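Toll-like receptors and inflammasome proteins are the sensors with which brain-resident and incoming immune cells read tissue damage, and 10 of their genes were followed here in mouse cortex after a stroke. The genes were Tlr1, Tlr2, Tlr3, Tlr4, Tlr7, Cd14, Myd88, Nlrp3, Pycard and Casp1. They were taken by symbol, through the RefSeq accession that the array design gives for each spot, and every probe was kept separate. This gave 12 probes with 30 spots, out of 39429 probes with 43020 spots and 20832 named genes on the array. Tlr7 and Nlrp3 each had 2 probes, and the probes for Tlr2 and Myd88 were each printed as 10 spots. All 12 probes were well above background in both channels on all 4 arrays, so none was lost to the filter on dim probes, and no spot was saturated.

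The samples were total RNA of the injured cortex from C57BL/6 mice, 8 weeks old, taken 24 h after permanent occlusion of the left middle cerebral artery by electrocoagulation. Both groups had this injury, and no uninjured cortex was analysed here, so no value below shows what the stroke itself did to a gene. The groups were wild type and Ndrg2KO, a knockout of Ndrg2, an N-myc downstream regulated gene that is prominent in astrocytes. How the knockout was made was not given in the sources used here. Each of 4 arrays carried 1 Ndrg2KO sample labelled with Cy3 and, in Cy5, the wild-type sample with the same replicate number, all 4 on 1 slide, and dyes were never swapped, so a dye effect of a probe and genotype cannot be told apart. The labels did not say that samples came from separate animals, so the p-values measure the spread between these samples, which may be technical.

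Ratios are log2 of knockout over wild type, so a negative value means a lower signal in the knockout channel, and values are means ± SD over 4 arrays. A probe passed at an adjusted p under 0.05 in limma, with Benjamini-Hochberg adjustment over all 30259 probes kept. Levels are normalised log2 intensities of a channel and are not compared between probes. The Ndrg2 probe itself was -0.18 ± 0.05 (adjusted p = 0.0244, limma), a small drop for a targeted gene. Over 15 alternatives of processing and of arrays used it stayed below 0, from -0.812 to -0.0432. It passed in 10 of them, with adjusted p up to 0.528 (limma). Where the probe lies relative to the deleted part is not known here. The samples are therefore called knockout-labelled. Cortical neurons were represented, since Snap25, a synaptic vesicle fusion protein, lay 866 times above local background in the knockout channel and 1156 times in the wild-type channel. Slc17a7, the vesicular glutamate transporter of cortical excitatory neurons, lay 155 and 178 times above it. Of the probes of Rbfox3, which encodes the neuronal nuclear protein NeuN, those with ratios of -0.12 and -0.05 did not pass, while the other was 0.35 (adjusted p = 0.00605). Over all probes tested, 3527 (11.7%) were lower and 2811 (9.29%) higher in the knockout-labelled samples.

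Toll-like receptors are membrane proteins that recognise microbial molecules and products of damaged cells. Tlr1, Tlr2 and Tlr4 act mainly at the cell surface, where CD14 hands ligands such as lipopolysaccharide to them, and Tlr3 and Tlr7 read double- and single-stranded RNA inside endosomes. Myd88 is the adaptor that most of these receptors share, Tlr3 excepted, and it leads to NF-kB and the transcription of cytokine genes and of inflammasome parts. NLRP3 is a cytosolic sensor that, through the adaptor ASC (encoded by Pycard), activates caspase-1, which cleaves the precursors of interleukin-1 beta and interleukin-18. In the injured brain most of these genes are expressed above all by microglia, infiltrating monocytes and neutrophils.

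RefSeq promoter windows of the build GRCm38.p6, reaching from 250 bases before to 50 bases after the transcription start, were used for 9 starts of 7 of the genes, without Tlr4, Tlr7 and Cd14. A window is shown for a surface receptor, the shared adaptor, a sensor and the effector enzyme, because these are the steps that the values below follow, and 10 bases after the start are printed. Capitals mark matches, found by script on either strand, to the NF-kB consensus in Tlr2 and Nlrp3, to GAAANNGAA, the core of an interferon-stimulated response element, in Myd88, and to GAGGAA, a core of PU.1 sites, in Casp1, where it lies on the other strand and so reads as its reverse complement. The windows lie at chr3:83841599-83841858 on the minus strand, chr9:119340009-119340268 on the minus strand, chr11:59541319-59541578 on the plus strand and chr9:5298267-5298526 on the plus strand.
Tlr2: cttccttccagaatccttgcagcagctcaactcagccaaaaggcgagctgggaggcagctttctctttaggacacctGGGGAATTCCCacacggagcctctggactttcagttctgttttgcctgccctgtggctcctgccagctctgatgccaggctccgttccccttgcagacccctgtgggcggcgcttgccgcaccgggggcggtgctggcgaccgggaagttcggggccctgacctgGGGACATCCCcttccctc
Myd88: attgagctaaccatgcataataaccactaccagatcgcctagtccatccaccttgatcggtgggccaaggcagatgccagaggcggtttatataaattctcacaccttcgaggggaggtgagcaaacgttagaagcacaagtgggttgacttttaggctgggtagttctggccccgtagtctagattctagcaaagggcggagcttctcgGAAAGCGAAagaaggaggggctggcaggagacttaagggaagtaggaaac
Nlrp3: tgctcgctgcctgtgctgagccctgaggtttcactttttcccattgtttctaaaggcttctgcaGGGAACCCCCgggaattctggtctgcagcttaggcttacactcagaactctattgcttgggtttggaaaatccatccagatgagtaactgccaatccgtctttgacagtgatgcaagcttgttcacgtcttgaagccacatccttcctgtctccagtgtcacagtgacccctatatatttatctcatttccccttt
Casp1: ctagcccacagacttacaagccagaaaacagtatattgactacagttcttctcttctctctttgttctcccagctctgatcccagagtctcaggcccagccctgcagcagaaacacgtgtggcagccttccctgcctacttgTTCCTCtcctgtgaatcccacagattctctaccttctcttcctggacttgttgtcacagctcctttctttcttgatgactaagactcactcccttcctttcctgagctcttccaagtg

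The Tlr2 window held NF-kB matches at bases -173 to -163, where overlapping matches lie on both strands, and at -8 to 2. The Nlrp3 match lay at -186 to -177 on the opposite strand, the Myd88 match at -40 to -32 and the Casp1 match at -108 to -103, all counted from the transcription start. Among the 9 windows, 3 held the NF-kB consensus, 1 held GAAANNGAA and 4 held GAGGAA. Of all 32851 windows of that length, 4.51%, 8.56% and 28.3% held these motifs. A match describes letters in the window and was not tied to any value by a test.

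Of the 12 probes, 2 fell and none rose. Casp1 fell by a factor of 1.12, and so did 1 of the Nlrp3 probes by a factor of 1.11, though it turned above 0 under median centring in place of loess. The other 10 probes did not pass. In bulk tissue, fewer cells of a type and less RNA per cell cannot be told apart. Over all probes 11.7% were lower and 9.29% higher, so 2 of 12 is close to that background. The count rested on the whole set of arrays: it was 0 without array 1, 2 or 3 and 3 without array 4, and 0 without the replicate block. The 3 probes without array 4 were others, those of Tlr1, Tlr2 and Cd14, and neither Casp1 nor an Nlrp3 probe passed there. Ratios were below 0 for 10 of the 12 probes, beside 16240 of all 30259 probes tested. The median over the members was -0.16 against -0.01 over all probes tested, and by array it was -0.25, -0.14, -0.15 and 0.01 on arrays 1 to 4. Ratios were below 0 on all 4 arrays for 4 member probes (a Tlr7 probe, an Nlrp3 probe, Pycard and Casp1), where 23.5% of all probes were, and above 0 on all 4 for none, where 19.8% of all probes were. At an unadjusted p under 0.05 there were 7 of 12 member probes, all below 0, and 11161 of all 30259 probes tested.

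**Figure D1:**
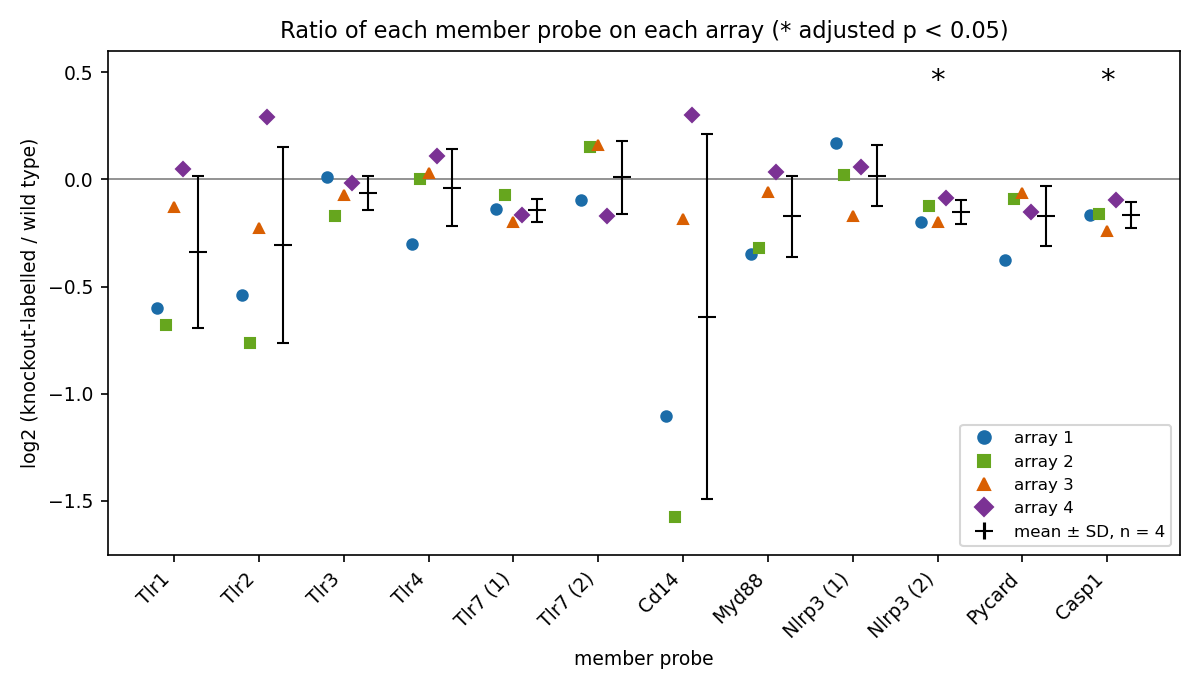
Log2 ratio of the knockout-labelled to the wild-type signal (vertical axis) for each of the 12 member probes (horizontal axis), with 1 point for each of the 4 arrays, the mean ± SD as a bar, and a star over probes that passed. Tlr7 (1) is A_55_P2050932, Tlr7 (2) is A_55_P2129047, Nlrp3 (1) is A_52_P650540 and Nlrp3 (2) is A_55_P2273439. Casp1 and the lower Nlrp3 probe have all 4 points below 0 within a narrow range under loess (the Nlrp3 probe is above 0 under median centring), while the points of Cd14 run from -1.57 to 0.30.

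None of the surface receptors or their co-receptor passed, and their ratios varied between arrays. Cd14, which binds lipopolysaccharide and other ligands for Tlr4 and Tlr2, had knockout-channel levels of 10.70, 10.32, 11.99 and 12.05 on arrays 1 to 4, against wild-type levels of 11.80, 11.89, 12.18 and 11.74. The knockout-labelled samples of arrays 1 and 2 were thus below every wild-type sample, and those of arrays 3 and 4 lay among them. Its ratios were -1.10, -1.57, -0.18 and 0.30, with a mean of -0.64 ± 0.85 (95% interval -1.28 to -0.000653, adjusted p = 0.135, limma).

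Tlr2, the receptor for bacterial lipoproteins and several damage signals, followed the same order of arrays. Its knockout-channel levels were 9.05, 8.84, 9.70 and 9.99, and its wild-type levels were 9.59, 9.60, 9.93 and 9.70. Arrays 1 and 2 again held the low knockout-labelled samples, and that of array 4 was above every wild-type sample. The ratios were -0.54, -0.76, -0.23 and 0.29, with a mean of -0.31 ± 0.46 (95% interval -0.66 to 0.04, adjusted p = 0.181, limma). On each array 9 of the 10 Tlr2 spots were used, and their SD was 0.042 to 0.053, against the SD of 0.46 between arrays.

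Tlr1, which forms heterodimers with Tlr2 to recognise triacylated lipopeptides, had knockout-channel levels of 7.92, 8.01, 8.47 and 8.56 and wild-type levels of 8.52, 8.69, 8.60 and 8.51. The first 3 knockout-labelled samples lay below every wild-type sample and that of array 4 lay among them. Its ratios were -0.60, -0.68, -0.13 and 0.05, and the mean of -0.34 ± 0.36 did not pass (95% interval -0.62 to -0.06, adjusted p = 0.0824, limma).

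For these 3 genes the call depended on the arrays used and on the centring. With all 4 arrays under median centring in place of loess, all 3 passed in limma, where the median of all probes tested was -0.157. Tlr1 was then -0.415 (adjusted p = 0.00621), Tlr2 -0.518 (adjusted p = 0.00633) and Cd14 -0.955 (adjusted p = 0.00536). Without array 4, Tlr1 was -0.47 (adjusted p = 0.0342), Tlr2 was -0.51 (adjusted p = 0.024) and Cd14 was -0.95 (adjusted p = 0.0377, all limma over the remaining arrays). Without array 2, which held the lowest ratio of each, Tlr1 was -0.23 (adjusted p = 0.255), Tlr2 was -0.16 (adjusted p = 0.509) and Cd14 was -0.33 (adjusted p = 0.396). Without array 1, the values were -0.25 for Tlr1 (adjusted p = 0.253), -0.23 for Tlr2 (adjusted p = 0.425) and -0.49 for Cd14 (adjusted p = 0.355). Without array 3, they were -0.41 (adjusted p = 0.0979), -0.336 (adjusted p = 0.26) and -0.792 (adjusted p = 0.143) in the same order.

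Tlr4, the lipopolysaccharide receptor, had a mean ratio of -0.04 ± 0.18 (95% interval -0.20 to 0.12, adjusted p = 0.714, limma). Its array ratios were -0.30, 0.00, 0.03 and 0.11, so array 1 held the low value and the other arrays lay near 0. Knockout-channel levels were 7.34, 7.63, 7.83 and 7.83 against wild-type levels of 7.64, 7.63, 7.80 and 7.72, and the groups overlapped.

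**Figure D2:**
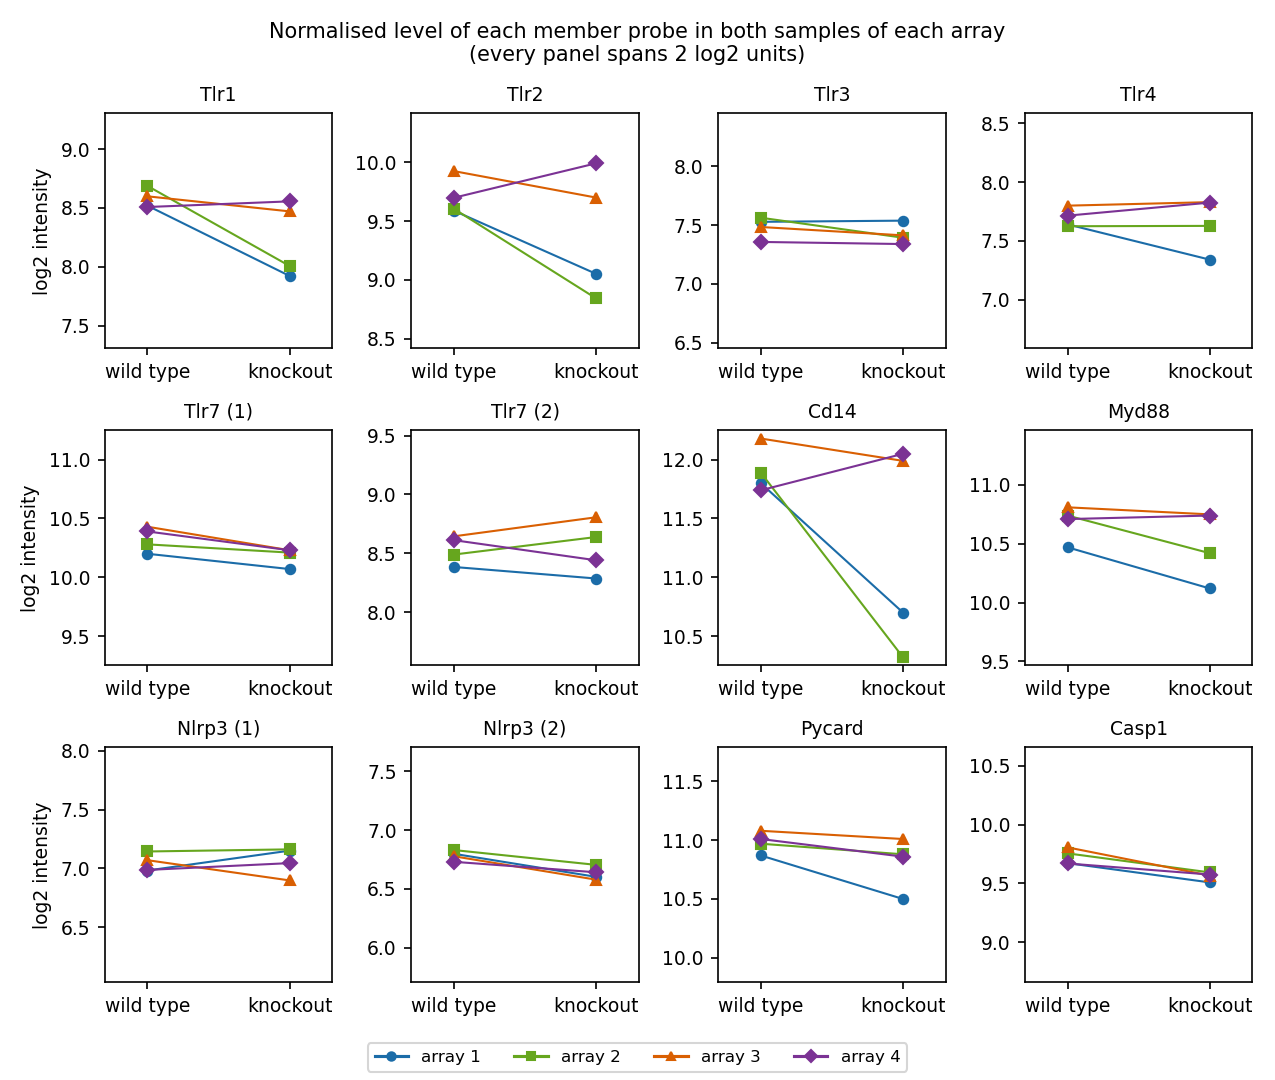
Normalised log2 intensity (vertical axis) of each member probe in the knockout-labelled and the wild-type channel, with a line that joins the samples of an array. For Cd14 the wild-type samples lie between 11.74 and 12.18 and the knockout-labelled samples between 10.32 and 12.05.

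The spread of the surface receptor group lay mostly in the knockout channel. The SD of the 4 levels was 0.89 for Cd14 in the knockout-labelled samples and 0.19 in wild type, 0.54 and 0.16 for Tlr2, 0.32 and 0.08 for Tlr1, and 0.23 and 0.08 for Tlr4. Over the 12 probes it was larger in the knockout channel for 9 (75%), where it was larger for 61.7% of all probes tested, and more than 2 times as large for 6 (50%), where it was for 21.2% of all probes. This is a description over 4 samples a group, and no test of it was made.

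The endosomal receptors among the members, Tlr3 and Tlr7, did not pass with the main processing. Tlr3, which signals through the adaptor Ticam1 and not through Myd88, had ratios of 0.01, -0.17, -0.07 and -0.02 and a mean of -0.06 ± 0.08 (95% interval -0.17 to 0.05, adjusted p = 0.366, limma). Its levels ran from 7.34 to 7.54 in the knockout channel and from 7.36 to 7.56 in wild type, and the groups overlapped.

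Tlr7, a receptor for single-stranded RNA, was read by 2 probes that did not give the same value. Probe A_55_P2050932, the brighter, had ratios of -0.14, -0.07, -0.20 and -0.16, below 0 on all 4 arrays, and a mean of -0.14 ± 0.05 (95% interval -0.24 to -0.04, adjusted p = 0.0503, limma), just outside the threshold. It passed in 4 of 15 alternatives, among them without background subtraction (adjusted p = 0.0468, limma) and under median centring (adjusted p = 9.78e-05, limma). In those where it did not pass, adjusted p reached 0.172 (limma). Its knockout-channel levels were 10.07, 10.21, 10.23 and 10.23 against wild-type levels of 10.20, 10.28, 10.43 and 10.39, and the groups overlapped. Probe A_55_P2129047 had ratios of -0.10, 0.15, 0.16 and -0.17 and a mean of 0.01 ± 0.17 (95% interval -0.15 to 0.17, adjusted p = 0.927, limma). Its knockout-channel levels, 8.29, 8.64, 8.81 and 8.44, lay on both sides of wild-type levels of 8.38, 8.49, 8.64 and 8.61.

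Myd88, the adaptor that links the receptors to the kinases of the IRAK family, had knockout-channel levels of 10.12, 10.42, 10.75 and 10.74 and wild-type levels of 10.47, 10.74, 10.81 and 10.71. Arrays 1 and 2 held the low knockout-labelled samples, as for the surface receptors. The ratios were -0.35, -0.32, -0.06 and 0.04, with a mean of -0.17 ± 0.19 (95% interval -0.34 to -0.0048, adjusted p = 0.126, limma). Its 10 spots had an SD of 0.037 to 0.045 on an array.

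**Figure D3:**
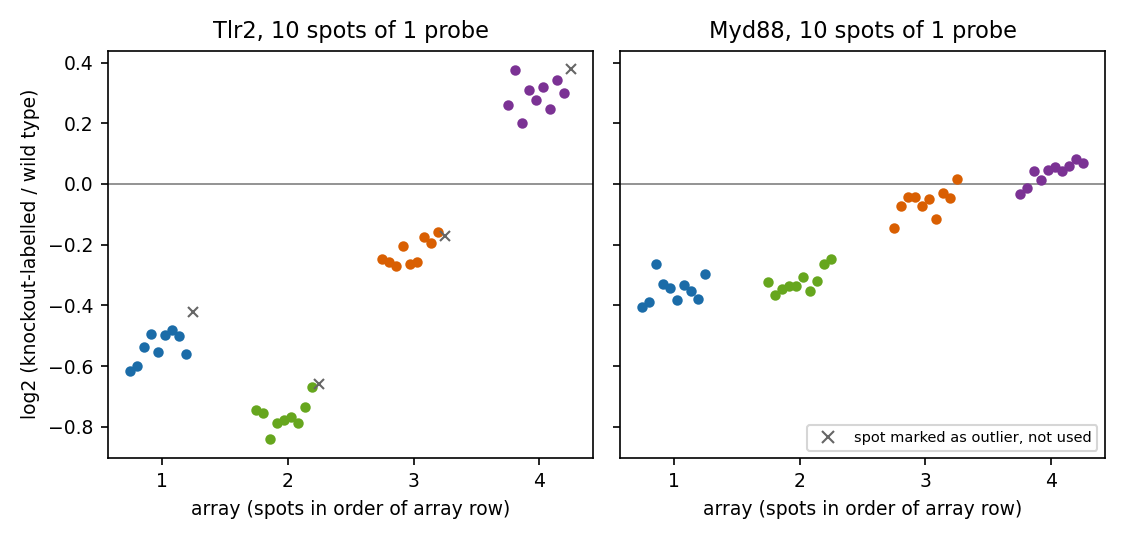
Log2 ratio of every spot of the Tlr2 and Myd88 probes (vertical axis) on each of the 4 arrays (horizontal axis), with spots in order of their row on the array and crosses for spots marked as outliers and not used. The spots of an array lie close together, and the arrays lie apart, from -0.84 to 0.37 over all Tlr2 spots used.

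The inflammasome genes held both calls. Casp1, the protease that matures interleukin-1 beta, had knockout-channel levels of 9.51, 9.59, 9.57 and 9.58 and wild-type levels of 9.67, 9.76, 9.81 and 9.67. Every knockout-labelled sample was below every wild-type sample, which was so for 2 of the 12 member probes and for 9.84% of all probes tested. The ratios were -0.16, -0.16, -0.24 and -0.09, and Casp1 fell by 0.17 ± 0.06 on the log2 scale (95% interval -0.27 to -0.06, adjusted p = 0.0352, limma). With an array left out the value ran from -0.19 to -0.14 and never passed, at adjusted p = 0.0599 to 0.115. It also did not pass without the replicate block (adjusted p = 0.0598) or with the scanner software's own processed signals (adjusted p = 0.0735).

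Nlrp3, the sensor, was read by 2 dim probes that gave different values. Probe A_55_P2273439 had knockout-channel levels of 6.60, 6.71, 6.58 and 6.64, each below every wild-type level of 6.80, 6.83, 6.78 and 6.73. Its ratios were -0.20, -0.13, -0.20 and -0.09, with a mean of -0.15 ± 0.05 (95% interval -0.25 to -0.05, adjusted p = 0.0424, limma), and turned to 0.32 under median centring in place of loess. It was -0.413 (adjusted p = 0.0319) with the scanner software's processed signals, and did not pass without background subtraction (adjusted p = 0.0577), with no filter on dim probes (adjusted p = 0.0565) or without the replicate block (adjusted p = 0.0696). Its spot lay 1.73 times above local background in the knockout channel and 1.84 times in wild type, and it was brighter than 10.8% of the probes tested. Probe A_52_P650540 had ratios of 0.17, 0.02, -0.17 and 0.06 and a mean of 0.02 ± 0.14 (95% interval -0.12 to 0.16, adjusted p = 0.852, limma). Its levels of 7.15, 7.16, 6.90 and 7.04 in the knockout channel overlapped those of 6.98, 7.14, 7.07 and 6.99 in wild type. The first probe also never passed with an array left out (adjusted p = 0.0731 to 0.13).

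Pycard, whose product ASC joins NLRP3 to caspase-1, had ratios of -0.37, -0.09, -0.06 and -0.15, all below 0, and a mean of -0.17 ± 0.14 that did not pass (95% interval -0.31 to -0.03, adjusted p = 0.0811, limma). Its knockout-channel levels were 10.50, 10.88, 11.01 and 10.86 against wild-type levels of 10.87, 10.97, 11.08 and 11.01. The sample of array 1 was the low value, and the groups overlapped.

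The way ratios were centred weighed on these values. When ratios were centred on the array median and not by loess, that median was taken over all spots outside controls, dim ones included. The median of the 30259 probes tested, from which dim probes were filtered, was then -0.16. The share of lower among all calls was 66.5% against 55.6%. Under median centring 7 member probes were lower (Tlr1, Tlr2, a Tlr7 probe, Cd14, Myd88, Pycard and Casp1) and 2 higher (both of Nlrp3, at 0.32). Of all 30259 probes tested, 15614 were then lower and 7883 higher. Relative to the median of all probes tested, 7 of the 12 member probes were then below it, against 10 of 12 with loess. The counts under median centring given below for lists are to be read beside those of all probes. Ratios also rose by 0.036 to 0.085 from the first to the last of 532 spot rows, as read from 399 probes with 10 spots each. With that trend removed, an alternative chosen after the data were seen, Casp1 was -0.185 (adjusted p = 0.0272) and the lower Nlrp3 probe -0.165 (adjusted p = 0.0355), and the counts of 2 lower and 0 higher did not move.

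The other genes of the pathway were grouped into 9 lists, of which 134 of 143 genes were tested. Of these, 19 (14.2%) fell and 5 (3.73%) rose, beside 11.7% and 9.29% of all probes, and their median ratio was -0.11 against -0.01. The count of falls was 6 without array 1, 12 without array 2 and 23 without array 4, and 6 with the scanner software's processed signals or without the replicate block. Rises numbered 1 to 3 when any array was left out. Under median centring the counts were 89 lower and 24 higher of 134, beside 15614 lower and 7883 higher of all 30259 probes. The median was then -0.32 where that of all probes tested was -0.16. Of the 16 pathway genes named below as having passed, 8 passed with the processed signals, where Acod1, Casp8, Ccl5, Il18bp, Irak3, Ly86, Ripk1 and Tirap did not. Without the replicate block 7 passed, and Acod1, Casp8, Ccl5, Cebpb, Il1rl1, Ly86, Naip6, Ripk1 and Tlr13 did not. Under median centring 11 passed in the same direction, and 12 of the 16 values turned or moved by over 1.5 times.

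Of the other Toll-like receptors, 5 of 7 were tested and 1 fell. This was Tlr13, an endosomal receptor for bacterial ribosomal RNA, with ratios of -0.52, -0.43, -0.40 and -0.27 and a mean of -0.41 ± 0.10 (adjusted p = 0.00396, limma), which passed also without each array but not without the replicate block. The others, named here after their values were seen, included Tlr6 at -0.12 ± 0.13, Tlr9 at -0.07 ± 0.11 and Tlr12 at -0.12 ± 0.05. The list median was -0.12 both with loess and under median centring, where that of all probes tested was -0.16, and the latter gave 2 lower and 1 higher.

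Among 9 co-receptors and trafficking genes, 1 fell. It was Ly86, which encodes MD-1, the partner of the Toll-like protein RP105, at -0.41 ± 0.34 (adjusted p = 0.0421, limma), and it did not pass without array 1, 2 or 4. Under median centring 6 of the list were lower and 1 higher. Ly96, the MD-2 subunit that Tlr4 needs to bind lipopolysaccharide, was 0.01 ± 0.11 (adjusted p = 0.944), and Unc93b1, the chaperone of the endosomal receptors, was 0.00 ± 0.02, though Unc93b1 was -0.25 (adjusted p = 0.00145, limma) under median centring.

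Of 21 adaptors and kinases, 4 fell and 3 rose. The rises numbered 0 without array 2, 3 or 4, falls and rises numbered 2 each without array 1, and the counts were 0 and 1 with the processed signals, 2 and 1 without the replicate block and 13 and 4 under median centring. Ripk1, a kinase downstream of Tlr3 and of the tumour necrosis factor receptor, fell by 0.37 ± 0.16 on the log2 scale (adjusted p = 0.0107, limma). Tirap, the adaptor that brings Myd88 to Tlr2 and Tlr4, was -0.33 ± 0.15 (adjusted p = 0.0131) and lost the call without array 1. Tbk1, the kinase of the interferon branch, was 0.22 ± 0.07 (adjusted p = 0.0162), turned to -0.04 under median centring, and lost the call without array 2, 3 or 4.

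Transcription factors of the pathway had a median of -0.18 over 13 genes, and by array of -0.23, -0.48, -0.00 and 0.05. Cebpb, which is itself induced by interleukin-1 and lipopolysaccharide, was the gene that fell, at -0.22 ± 0.08 (adjusted p = 0.0181, limma), and it did not pass without array 1, 2 or 3. The list had 2 falls without array 4 and 10 under median centring. The NF-kB subunits Nfkb1, at -0.01 ± 0.14, and Rela, at 0.07 ± 0.07, did not pass, though Rela turned to -0.36 under median centring. The dimmer Nfkb1 probe was at -0.19.

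Of 16 brakes on receptor signalling, 4 fell and 1 rose, against 2 and 0 without array 1 or 2, 3 and 0 without array 3 or 4, 2 and 0 without the replicate block, 2 and 1 with the processed signals and 11 and 2 under median centring. Il1rl1, the receptor of interleukin-33, was -0.24 ± 0.08 (adjusted p = 0.0132, limma), but -0.0715 (adjusted p = 0.201) under median centring. Irak3, the kinase-like protein that holds back Irak1 and Irak4, was -0.24 ± 0.12 (adjusted p = 0.0218) but did not pass without array 1 or 2. Nfkbib, an inhibitor of NF-kB, was -0.23 ± 0.04 by its brightest probe (adjusted p = 0.0112), while its other probes were at -0.06 and -0.08.

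Among 15 endogenous ligands, 1 rose and none fell, but 4 were lower without array 4, and 13 were lower and 2 higher under median centring. Hmgb1, a chromatin protein that acts as a danger signal once released, was 0.76 ± 0.12 by its brightest probe (adjusted p = 0.00113, limma), while its 6 other probes ranged from -0.0043 to 0.56. Hmgb1 has near-identical copies in the genome, so its probes may share signal with them. S100a8 and S100a9, calcium-binding proteins of neutrophils and monocytes that act on Tlr4, were -0.68 ± 0.65 (adjusted p = 0.0575) and -0.54 ± 0.64 (adjusted p = 0.106). The ratios of S100a8 were -1.28, -1.18, -0.30 and 0.04, so arrays 1 and 2 were again the low ones.

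Target genes of receptor signalling had a median of -0.33 over 17 genes, and by array of -0.41, -0.75, -0.00 and -0.08, and 2 of them fell. The falls numbered 0, 3, 5 and 4 without arrays 1 to 4 in turn, and 0 with the processed signals or without the replicate block, and median centring gave 11 lower and 3 higher. Ccl5, a chemokine for T cells and monocytes, was -0.72 ± 0.47 (adjusted p = 0.0193, limma) and did not pass without array 1. Acod1, the enzyme that makes itaconate in activated macrophages, was -0.51 ± 0.32 (adjusted p = 0.0202) and did not pass without array 1 or 3. The chemokine gene Cxcl10 had ratios of -0.95, -3.27, -0.80 and -0.35 (mean -1.34 ± 1.31, adjusted p = 0.0588), Il6 was -0.87 ± 1.01 (adjusted p = 0.0941) and Tnf was -0.19 ± 0.45 (adjusted p = 0.38).

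Of 17 other inflammasome sensors and Nod-like receptors, 1 fell, and under median centring 7 were lower and 8 higher. It was Naip6, of the family that recognises bacterial flagellin, at -0.26 ± 0.11 (adjusted p = 0.0156, limma), and it did not pass without array 1, 2 or 4. Naip6 was -0.563 (adjusted p = 0.0319) with the processed signals and -0.027 (adjusted p = 0.696) under median centring. Aim2, the sensor of cytosolic DNA, was 0.02 ± 0.04 (adjusted p = 0.792), and Nlrc4, the partner of the Naip proteins, was 0.06 ± 0.01 (adjusted p = 0.29), but under median centring they were 0.511 (adjusted p = 2.69e-05) and 0.576 (adjusted p = 1.66e-05).

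Of 21 inflammasome partners, substrates and brakes, 5 fell and none rose. The falls numbered 1, 3, 2 and 4 without arrays 1 to 4 in turn, 2 without the replicate block and 1 with the processed signals, and median centring gave 16 lower and 3 higher. Il18bp, the secreted protein that neutralises interleukin-18, was -0.36 ± 0.20 (adjusted p = 0.0183, limma) and did not pass without array 1. Casp8, a protease that can cleave the same precursor as caspase-1, was -0.28 ± 0.20 (adjusted p = 0.0343) and did not pass without array 1, 2 or 3. Casp12, a caspase of the caspase-1 cluster, was -0.21 ± 0.03 (adjusted p = 0.0131) and turned to 0.31 under median centring. The substrate genes gave no call: Il1b had ratios of -0.71, -1.02, 0.05 and 0.29 (mean -0.35 ± 0.62, adjusted p = 0.251), with arrays 1 and 2 low as for Cd14 and Tlr2, and Il18 was 0.08 ± 0.21 (adjusted p = 0.46) and turned to -0.22 under median centring. Nek7, which NLRP3 binds for its activation, was -0.09 ± 0.04 (adjusted p = 0.17).

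**Figure D4:**
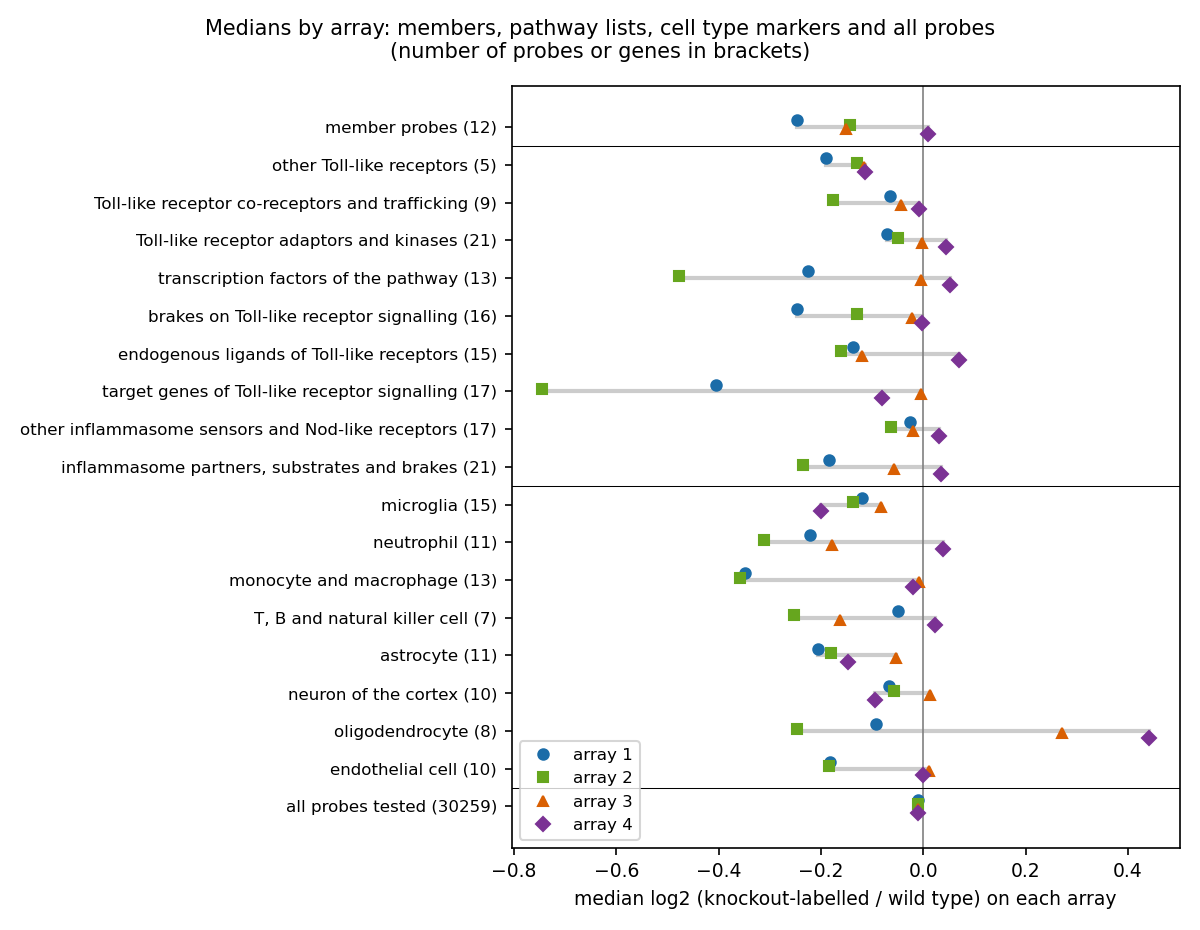
Median log2 ratio of the knockout-labelled to the wild-type signal (horizontal axis) on each of the 4 arrays, for the member probes, the pathway lists, the cell type marker lists and all probes tested. The target genes run from -0.75 on array 2 to -0.00 on array 3, and the monocyte and macrophage markers from -0.36 on array 2 to -0.01 on array 3.

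Markers of the cells that carry these genes were set beside them. Of 15 microglia markers, 7 fell and none rose, their median ratio being -0.21 and the array medians -0.12, -0.14, -0.08 and -0.20. The falls numbered 4, 3, 4 and 4 without arrays 1 to 4 in turn, 3 without the replicate block, 2 with the processed signals and 12 under median centring. Median centring called 15614 of all 30259 probes lower and 7883 higher, which applies to the marker lists that follow too. Their summed intensity, on which bright probes weigh most, was 130037 to 140341 in the knockout-labelled samples and 152095 to 163938 in wild type. Their mean log2 level was 11.9 to 11.94 against 11.99 to 12.13. Ctss, a lysosomal protease of microglia, was -0.45 ± 0.11 (adjusted p = 0.00305, limma), and Cx3cr1, the fractalkine receptor, was -0.29 ± 0.06 by its brighter probe (adjusted p = 0.00678) and -0.09 by the other.

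Of 13 monocyte and macrophage markers, 3 fell, and array medians were -0.35, -0.36, -0.01 and -0.02. The falls numbered 2 without array 2 or 3, 4 without array 4 and 2 without the replicate block, and median centring gave 7 lower and 1 higher. Their summed intensity was 53370 to 57805 against 64381 to 73435, but their mean log2 levels overlapped, at 9.24 to 9.91 against 9.56 to 9.77. Ms4a4c, a gene of interferon-exposed monocytes, was -0.49 ± 0.09 by its brightest probe (adjusted p = 0.00213, limma) and -0.33 and -0.19 by the others. Adgre1, a surface marker of macrophages, was -0.40 ± 0.14 by its brighter probe (adjusted p = 0.00719) and -0.09 by the other. The other 10 markers did not pass, and 10 of the 13 ratios were below 0, beside 16240 of all 30259 probes tested. Ccr2 was -0.03 ± 0.50, Chil3 0.10 ± 1.01, F13a1 0.07 ± 0.13 and Cd163 0.05 ± 0.09. On array 4, Ccr2 was 0.60 and Chil3 1.41.

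Of 11 neutrophil markers tested, 3 fell, and array medians were -0.22, -0.31, -0.18 and 0.04. The falls numbered 1 without array 2 or 3, 6 without array 4, 1 without the replicate block and 2 with the processed signals, and median centring gave 7 lower and 3 higher. Their summed intensity was 46137 to 54792 against 58578 to 67430, but their mean log2 levels overlapped, at 8.68 to 9.38 against 9.08 to 9.39. Mcemp1 was -0.42 ± 0.08 (adjusted p = 0.00273, limma) and Elane, the neutrophil elastase, -0.22 ± 0.06 (adjusted p = 0.0145), which did not pass without array 2 or 3.

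Of 11 astrocyte markers 3 fell (11 under median centring), among them Aldoc at -0.39 ± 0.09 (adjusted p = 0.00396, limma) and the glutamate transporter gene Slc1a2 at -0.30 ± 0.09 (adjusted p = 0.00845). Slc1a2 was read by its brightest probe, and its other probes were at -0.08 and -0.46. The summed intensity of the astrocyte markers was also lower, at 203973 to 229426 in the knockout-labelled samples against 250084 to 265373 in wild type. Of 10 neuronal markers 2 fell (10 under median centring), Gad2 at -0.24 ± 0.17 (adjusted p = 0.0425) and Tbr1 at -0.21 ± 0.14 (adjusted p = 0.0427). Gad2 did not pass without array 1, 2 or 4, nor Tbr1 without array 1, 3 or 4. The dimmer Tbr1 probe was at 0.02. Of 8 oligodendrocyte markers 2 rose, Mbp at 0.29 ± 0.23 (adjusted p = 0.0434) and Olig2 at 0.16 ± 0.04 (adjusted p = 0.0344), both of which turned below 0 under median centring and did not pass when any of the 4 arrays was left out. Mbp was read by its brightest probe, and its other probes were at 0.11 and -0.115. Of 10 endothelial markers, Vwf fell, at -0.23 ± 0.14 (adjusted p = 0.0351), but did not pass when any of the 4 arrays was left out, and 8 were lower under median centring. Of 7 lymphocyte markers (T, B and natural killer cells) Nkg7 fell, at -0.23 ± 0.05 (adjusted p = 0.0128), but did not pass without array 2, and 3 of the list were lower without array 4. Median centring gave 2 lower and 3 higher there. The summed intensities of the neuronal, oligodendrocyte, endothelial and lymphocyte markers overlapped between the groups. The part that these cell types have in the values of the receptor and inflammasome genes was not tested.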

How the data were processed

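RNA of 4 knockout-labelled and 4 wild-type samples was measured on 4 2-colour Agilent arrays. Per the file headers, the signals of spots and of their local background are linear intensities from Agilent Feature Extraction 11.0.1.1; the submitters' processing notes name 10.7.3.1. The deposited log10 ratio is Cy5 over Cy3 of the software's processed signals, per the file headers, and the deposited series matrix holds log2 of the same ratio, equal to within 0.001 for all 39030 probes with 1 spot, with column medians of -0.05, -0.06, -0.04 and -0.03. It gives wild type over knockout, opposite to the direction used here. The other deposited values are flags of 0 or 1 for spots well above background, saturated or outlying, per the file headers. Linear amplification and labelling started from 200 ng of RNA, per the labels' protocols, whose wording mentions plant shoots and does not match this tissue.

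Median spot and background signals were corrected with normexp (offset 50) and normalised by loess within arrays (control spots at weight 0). Fits used limma 3.58.1 and statmod 1.5.0 in R 4.3.3, and figures were drawn with Python 3.11.15 and matplotlib 3.10.9. Outlier-marked spots were left out and spots of a probe averaged. A probe was kept when well above background on at least 3 of 4 arrays in either channel, which left 30259 of 39429. Ratios were tested against 0 with lmFit and eBayes, so the array was the block that pairs samples. Channel levels were scaled with Aquantile. The 4 arrays limit the precision. Accessions were named through RefSeq genes of GRCm38.p6, which gave 27427 probes (69.6%) a symbol. A list gene was read by its brightest kept probe.

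Named were all members, up to 3 genes per pathway list and 2 per marker list with the smallest p among those that passed, Ndrg2, Rbfox3, Snap25 and Slc17a7. Tlr6, Tlr9, Tlr12, Ly96, Unc93b1, Nfkb1, Rela, S100a8, S100a9, Cxcl10, Il6, Tnf, Aim2, Nlrc4, Il1b, Il18 and Nek7 were named for their role after their values were seen. Ccr2, Chil3, F13a1 and Cd163 were named as list markers near or above 0, also after their values were seen. The members and lists were chosen with earlier results of these data known. Steps were tested on simulated data. Alternatives varied the background, the normalization, the filters, the block, the probe choice, the row trend and the arrays used.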

Additional observations from a re-analysis of the deposited data

Results flagged for a closer look

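In 4 of 83 sets of 4 values, 1 sample stood apart, its gap to the nearest value, as a share of the range, being past Dixon's 95% limit, and chance alone flags about 1 set in 20. The knockout-channel level of Tlr7 probe A_55_P2050932 was 10.1 on array 1 and 10.2 on the other arrays (gap over range 0.875). The ratio of Adgre1 was -0.18 on array 2 and between -0.49 and -0.45 on the others (0.867). Naip6 was -0.10 on array 3 and between -0.34 and -0.31 on the others (0.861). Nkg7 was -0.15 on array 1 and between -0.25 and -0.24 on the others (0.906). Cd14, Tlr2 and Tlr1, with SDs between arrays of 0.85, 0.46 and 0.36, were not among them.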

How the results depend on the processing

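The count of member probes that fell, 2, was 1 with the scanner software's processed signals, with the series matrix, with no filter on dim probes and with 1 probe per gene, 7 with median centring, 0 with no replicate block, and 0 to 3 with an array left out. The 3 without array 4 were Tlr1, Tlr2 and Cd14, and neither Casp1 nor Nlrp3 passed there. Member probes that rose numbered 0, and 2 with median centring. Over all probes, the 3527 falls became 2028 with the processed signals, 2027 with the series matrix, 15614 with median centring, 1748 with no replicate block and 1356 to 2164 with an array left out, and the 2811 rises became 7883, with median centring, 1645 with no replicate block and 1064 to 1651 with an array left out. Casp1 kept its sign in 15 of 15 alternatives and passed in 8, and Nlrp3 probe A_55_P2273439 kept its sign in 13 of 14 and passed in 7. Among genes that passed in either setting, values turned under median centring for Nlrp3 probe A_55_P2273439 (0.316), Casp12 (0.310), Mbp (-0.162), Olig2 (-0.0878), Tbk1 (-0.0400), Unc93b1 (-0.245), Il18 (-0.218) and Rela (-0.364), and the cause was not tested. Tlr3 (0.0860), Tlr4 (0.0463), Tlr7 probe A_55_P2129047 (-0.0853) and Ly96 (-0.0421), which passed in neither setting, changed sign there too. Of 16 named pathway genes that passed, 6 passed without each array, and so did 7 of 14 marker genes. The 4 arrays without dye swap limit every value, and the Nlrp3 probe that passed lay 1.73 and 1.84 times above local background.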
